A study of Homo sapiens with 12 samples.

Results

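The oncofetal genes LIN28A, LIN28B, HMGA1, HMGA2, IGF2BP1, IGF2BP2, IGF2BP3 and TRIM71 are 8 of the 56593 symbols in an FPKM table, and they were taken from it by symbol alone. FPKM counts read fragments per length of transcript and per mapped fragments of a library, so levels can be compared between genes. Gene expression had been measured by RNA-seq in 12 libraries, 3 from each of 4 populations. These were undifferentiated cells of H1, a widely used human embryonic stem cell line, and APLNR+ cells of day 2, CD31+CD34+ cells of day 5 and CD43+ cells of day 8 derived from H1. Differentiating cultures were given activin A and BMP4 in a custom mTeSR1 medium up to day 2, then VEGF and bFGF up to day 8. All 4 populations came from a single line with no genetic change named in the labels, and the labels do not say whether replicates came from separate cultures, so p values measure only the spread between these libraries. The study states in general that every analysis rests on 3 or more independent experiments, without naming these libraries. The question was how much of the H1 level of each gene was left in CD43+ cells.

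Oncofetal genes are active in the embryo, largely silent in most adult tissues and often switched on again in tumors. LIN28A and LIN28B are RNA-binding proteins that block the maturation of the let-7 microRNAs, and let-7 in turn represses LIN28, HMGA2, IGF2BP and TRIM71 messages, so the genes and the microRNA restrain each other. In blood formation LIN28B, HMGA2 and the IGF2BP proteins are known for traits of fetal as against adult progenitors, among them fetal globin and self-renewal.

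The sequences that join these genes are the let-7 seed and its matches. A seed is bases 2 to 8 of a microRNA, the part that pairs with a message. In RefSeq (GRCh38.p14) 9 mature sequences named let-7 or miR-98 shared 1 seed, shown in capitals, and miR-4458 and miR-4500 carried it too. Of these, 3 show how the family differs outside the seed.
let-7a-5p: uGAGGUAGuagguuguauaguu
let-7g-5p: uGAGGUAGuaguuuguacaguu
miR-98-5p: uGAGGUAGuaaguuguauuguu

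The letters CTACCTC, which pair with this seed, were searched on the sense strand of the 3' UTR of 1 annotated transcript per gene (GENCODE release 29, GRCh38). All 8 genes held at least 1 match, against 8.55% of the other genes among 18945 protein-coding genes with a 3' UTR. The 8 genes held 22 matches, or 0.777 per kb of 3' UTR against 0.0617 in all other genes. The match nearest to the stop codon of each gene is shown with 16 bases before it and 1 base after it, the match in capitals, because an A after the match is a known feature of strong target sites.
LIN28A: tgcacagcctattgaaCTACCTCa
LIN28B: tacccggttgcaaagtCTACCTCa
TRIM71: caacattgcttaagtcCTACCTCa
HMGA1: ttcctctgttcacaaaCTACCTCt
HMGA2: cgccaacgttcgatttCTACCTCa
IGF2BP1: ctgtgtgcgaagtaaaCTACCTCa
IGF2BP2: aaacacacagaagaagCTACCTCa
IGF2BP3: gtgcatttttactcaaCTACCTCa

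Every one of these lies in the last exon. In GRCh38 they are at chr1:26427347-26427370 in LIN28A, chr6:105078811-105078834 in LIN28B, chr3:32891967-32891990 in TRIM71, chr6:34245828-34245851 in HMGA1 and chr12:65963297-65963320 in HMGA2, all on the plus strand. IGF2BP1 has its match at chr17:49051060-49051083 on the plus strand, IGF2BP2 at chr3:185644220-185644243 and IGF2BP3 at chr7:23311795-23311818, both on the minus strand. The processing notes in the labels name hg19, and no coordinate was carried from one build to the other. TRIM71 held 6 matches, LIN28B, HMGA2 and IGF2BP1 4 each, and LIN28A, HMGA1, IGF2BP2 and IGF2BP3 1 each. Long 3' UTRs hold more matches by length alone. Among 951 genes with a 3' UTR within 25% of the length in TRIM71, 28.2% held a match and 0% held as many as TRIM71. For HMGA2 14.5% of 2341 genes of like length held a match and 0.0427% held as many, and for LIN28B 22.8% of 1521 genes and 0.131%. For LIN28A, with its single match, 16.01% of 2211 genes of like length held one. A match in these letters is a description of the message and was not tested as a site of repression.

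**Figure D1:**
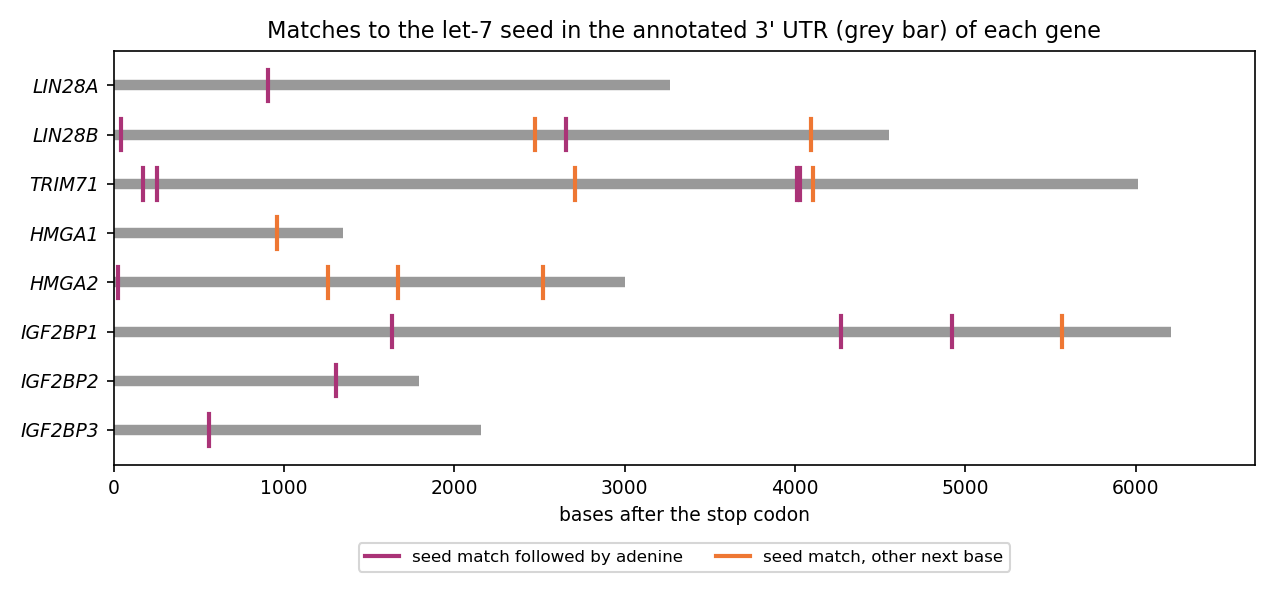
Matches to the let-7 seed along the 3' UTR of each of the 8 genes. The horizontal axis is the distance in bases after the stop codon, grey bars are the annotated 3' UTRs and coloured marks are the 22 matches. TRIM71 carries 6 marks, 4 of them followed by adenine, and the mark of HMGA2 nearest to its stop codon lies 21 bases after it.

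LIN28 proteins recognise the letters GGAG in the loop of let-7 hairpins. In RefSeq this motif was counted in the loop of 9 of 12 let-7 and miR-98 hairpins, against 8.12% of 739 hairpins with both arms annotated. The 739 include let-7 hairpins, and the loop was taken as the bases between the arms. MIRLET7A3, MIRLET7B and MIR98 lacked it there. MIRLET7F2, with 1 arm annotated, is counted among the 9 after a search from that arm to the end of the hairpin. A hairpin with the motif and 1 without are shown, the motif in capitals.
MIRLET7G: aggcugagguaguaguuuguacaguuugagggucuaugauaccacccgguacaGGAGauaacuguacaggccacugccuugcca
MIRLET7A3: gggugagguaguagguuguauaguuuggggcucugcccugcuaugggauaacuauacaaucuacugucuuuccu

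The microRNAs themselves were not measured by these libraries. Of 17 let-7 host transcripts and hairpins 16 stood in the table, and their levels summed to at most 1.38 FPKM in a library. All 12 hairpin genes were listed at 0 in every library, so none entered the test. MIRLET7BHG, the host of let-7a-3 and let-7b, lay between 0.612 and 0.811 FPKM in H1 and at most at 0.0559 FPKM in APLNR+ cells. In CD43+ cells MIRLET7BHG was at most at 0.0105 FPKM. MIR100HG was between 0.118 and 0.213 FPKM in H1 and at most at 0.0748 FPKM in CD43+ cells. MIR99AHG went the other way, from at most 0.0804 FPKM in H1 to between 0.367 and 1.30 FPKM in CD43+ cells. No host transcript entered the test.

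Before the values, the libraries were checked for the populations they are named for. Pluripotency markers summed to between 2248 and 2351 FPKM in H1 and between 70.3 and 80.7 FPKM in CD43+ cells. All 9 of them that were tested had fallen in CD43+ cells, SOX2 to 0.141% and POU5F1 to 1.25% of the H1 mean. Mesoderm markers summed to at least 586 FPKM in APLNR+ libraries and at most 1.34 FPKM in H1, and endothelial markers to at least 1714 FPKM in CD31+CD34+ libraries. CD31+CD34+ libraries also held mesoderm markers, between 407 and 462 FPKM summed. APLNR, the sorting marker of the APLNR+ cells, made up most of both sums, at means of 383 FPKM in APLNR+ and 403 FPKM in CD31+CD34+ cells. Blood markers summed to between 2435 and 2997 FPKM in CD43+ libraries, while PTPRC, the common leukocyte antigen CD45, was listed at 0 to 0.521 FPKM there. CD43+ libraries also held endothelial markers, all 10 at a mean of 1 FPKM or more and between 628 and 771 FPKM summed. Summed FPKM ran from 568036 to 1576040 per library, the read depth is unknown, and 6 libraries list EEF1A1, a translation factor of all cells, at 0, so a 0 here can be a failed estimate. None of the 8 genes was listed at 0 in any library.

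Of the 8 genes, 5 were lower in CD43+ cells than in H1 by at least 2-fold and 3 were not. HMGA2, TRIM71, IGF2BP3, LIN28B and LIN28A were left at 14.4%, 15.5%, 25.8%, 26.8% and 28.6% of their H1 mean. HMGA1 stood at 82.4%, IGF2BP1 at 99.8% and IGF2BP2 at 120.4%. All 8 remained above 5 FPKM in every CD43+ library, from 5.45 FPKM of HMGA2 to 269 FPKM of HMGA1. In the ranking of the 14840 genes tested, the mean CD43+ level of HMGA1 was at percentile 98.1 and that of LIN28A at 96.5, followed by IGF2BP1 at 86.2, IGF2BP2 at 81.6, LIN28B at 70.4, IGF2BP3 at 67.2, TRIM71 at 62.7 and HMGA2 at 61.5. These are bulk samples, in which fewer cells with a message and less message per cell cannot be told apart.

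**Figure D2:**
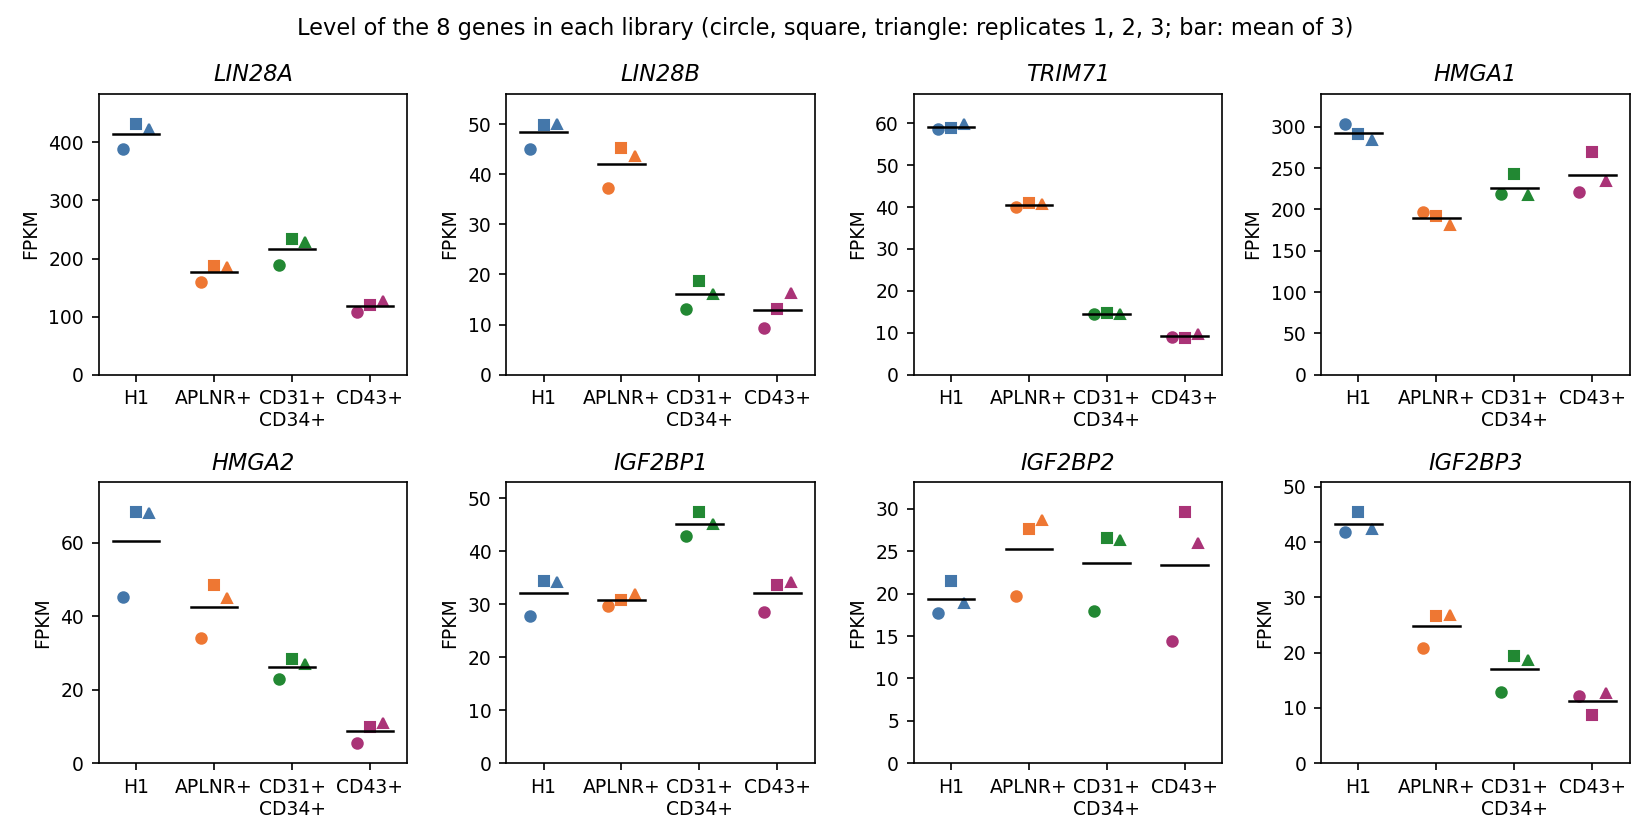
FPKM of each of the 8 genes (vertical axes, linear, from 0) in the 4 populations, 1 panel per gene. Each point is a library (circle, square and triangle for replicates 1, 2 and 3) and each bar the mean of 3. The means of LIN28B, TRIM71, HMGA2 and IGF2BP3 step down from H1 to CD43+ cells, IGF2BP1 is highest in CD31+CD34+ cells, and the populations overlap in IGF2BP2.

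The changes below are differences of means of log2(FPKM + 1) from limma, fitted to the 14840 genes that reached 1 FPKM in at least 3 libraries, with Benjamini-Hochberg adjustment over all of them. To be called raised or lowered a gene had to differ by 2-fold or more with an adjusted p under 0.05, and all 8 genes passed the filter. In CD43+ against H1, 0 of the 8 were called raised and 5 lowered, where 14.6% and 22.5% of all genes tested were. The libraries of both populations were apart for 6 of 8, where they were for 76.3% of all genes. The median change of the 8 was -1.83 and that of all genes -0.10.

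LIN28A, the LIN28 protein of pluripotent cells and one of the factors used to reprogram cells to pluripotency, was at 388, 432 and 424 FPKM in H1 and at 159, 188 and 186 FPKM in APLNR+ cells. It was at 188, 233 and 229 FPKM in CD31+CD34+ cells, and CD43+ cells had 108, 120.5 and 127 FPKM. Every H1 library was above every other library, and every CD43+ library below every other. The level did not fall from APLNR+ to CD31+CD34+ cells, whose lowest library, at 188.1 FPKM, was just above the highest APLNR+ library, at 187.7 FPKM. The change from H1 to APLNR+ cells was -1.22 ± 0.11 (SE, n = 3 against 3, limma adjusted p = 1.49e-06), and -0.96, under 2-fold, where libraries were scaled to the sum of protein-coding genes. The next step gave 0.28 ± 0.11 (limma adjusted p = 0.0335, and up to 0.133 with a library left out), under the 2-fold limit and at -0.0030 under quantile normalization, and the last gave -0.86 ± 0.11 (limma adjusted p = 3.58e-05), also under 2-fold. From H1 to CD43+ cells LIN28A fell by 1.80 on this scale, 3.48-fold (limma adjusted p = 1.73e-08).

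LIN28B, the paralog known for its role in fetal blood progenitors, was at 45.1, 49.8 and 50.1 FPKM in H1 and at 37.3, 45.2 and 43.7 FPKM in APLNR+ cells. It was at 13.2, 18.7 and 16.2 FPKM in CD31+CD34+ cells and at 9.40, 13.1 and 16.4 FPKM in CD43+ cells. The libraries thus formed a high pair and a low pair of populations, which overlapped within each pair. The fall came between APLNR+ and CD31+CD34+ cells, -1.35 ± 0.17 (SE, n = 3 against 3, limma adjusted p = 1.82e-05). From CD31+CD34+ to CD43+ cells the change was -0.30 with a 95% interval from -0.68 to 0.07 (limma adjusted p = 0.156), and from H1 to CD43+ cells it was -1.85 ± 0.17 (limma adjusted p = 8.25e-07). An antisense transcript, LIN28B-AS1, was between 0.058 and 0.909 FPKM, and the strand setting of the counting is not stated.

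LIN28A was the larger part of the LIN28 message in every library. Its share of the summed FPKM of both genes was 89.6% ± 0.126 in H1 (SD, n = 3) and 80.9% ± 0.223 in APLNR+ cells. CD31+CD34+ cells had 93.1% ± 0.483 and CD43+ cells 90.3% ± 1.71. The shares of APLNR+ libraries lay below and those of CD31+CD34+ libraries above all others. Between CD43+ cells and H1 the shares overlapped (difference 0.694 percentage points, exact two-sided permutation p = 0.7), and steps without overlap had p = 0.1 in the same exact test, its lower limit with 3 libraries a side. Summed LIN28 message in CD43+ cells was 28.4% of the H1 mean.

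TRIM71, the RNA-binding ubiquitin ligase named LIN-41 in worms and a classic target of let-7, was at 58.7, 58.9 and 59.9 FPKM in H1 and at 39.9, 40.9 and 40.8 FPKM in APLNR+ cells. It was at 14.5, 14.7 and 14.4 FPKM in CD31+CD34+ cells and at 9.11, 8.74 and 9.71 FPKM in CD43+ cells. No population overlapped another, and the coefficient of variation within a population was at most 5.36%. The fall was called from APLNR+ to CD31+CD34+ cells, -1.42 ± 0.070 (SE, n = 3 against 3, limma adjusted p = 5.54e-09), the step at which LIN28B was called as well. The first and last steps gave -0.53 and -0.61 (limma adjusted p = 4.15e-05 and 1.6e-05), each under 2-fold. From H1 to CD43+ cells TRIM71 fell by 2.56, 5.91-fold (limma adjusted p = 1.74e-11).

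HMGA2, a chromatin architecture protein that binds AT-rich DNA and promotes self-renewal of fetal stem cells, was at 45.3, 68.3 and 68.1 FPKM in H1 and at 34.1, 48.4 and 45.0 FPKM in APLNR+ cells. It was at 22.9, 28.4 and 26.9 FPKM in CD31+CD34+ cells and at 5.45, 9.84 and 10.9 FPKM in CD43+ cells. H1 and APLNR+ libraries overlapped through replicate 1 of H1, and later populations were apart. HMGA2 was the single gene of the 8 called between CD31+CD34+ and CD43+ cells, -1.52 ± 0.23 (SE, n = 3 against 3, limma adjusted p = 0.000149). Its fall from H1 to CD43+ cells was the largest of the 8, -2.69 with a 95% interval from -3.19 to -2.18 (6.44-fold, limma adjusted p = 4.06e-07), though that interval overlaps the one of TRIM71, from -2.72 to -2.41.

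HMGA1, its paralog, which is common in all dividing embryonic cells, was between 284 and 304 FPKM in H1 and between 181 and 197 FPKM in APLNR+ cells. It was between 218 and 243 FPKM in CD31+CD34+ cells and between 221 and 269 FPKM in CD43+ cells. H1 libraries were above and APLNR+ libraries below all others, and the later populations overlapped. No change reached 2-fold. The first step gave -0.62 ± 0.091 (SE, n = 3 against 3, limma adjusted p = 9.7e-05), the second 0.25 ± 0.091 (limma adjusted p = 0.0249, up to 0.101 with a library left out, and a change of -0.04 under quantile normalization) and CD43+ against H1 -0.28 ± 0.091 (limma adjusted p = 0.0136, and 0.234 under TMM scaling). The share of HMGA1 in the summed HMGA message was 82.9% ± 3.59 in H1 (SD, n = 3) and 81.7% ± 3.04 in APLNR+ cells. CD31+CD34+ cells had 89.7% ± 0.763 and CD43+ cells 96.5% ± 1.02. The shares of CD43+ libraries were all above those of every other library (exact two-sided permutation p = 0.1, the smallest possible). The ratio of HMGA1 to HMGA2 was between 4.16 and 6.71 in H1 and between 21.5 and 40.6 in CD43+ cells. Other genes, its pseudogenes among them, share 9.14% of the 50-base stretches of the HMGA1 transcript, and HMGA1P1, which shares most, was at most 0.13 FPKM.

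IGF2BP1, an RNA-binding protein that stabilises MYC, IGF2 and other growth messages, was at 27.9, 34.4 and 34.2 FPKM in H1 and at 29.7, 30.8 and 32.01 FPKM in APLNR+ cells. It was at 42.8, 47.4 and 45.2 FPKM in CD31+CD34+ cells and at 28.5, 33.7 and 34.2 FPKM in CD43+ cells. CD31+CD34+ libraries were above all others, and H1, APLNR+ and CD43+ libraries overlapped. The change into CD31+CD34+ cells was 0.53 ± 0.10 (SE, n = 3 against 3, limma adjusted p = 0.000508) and the change out of them -0.48 ± 0.10 (limma adjusted p = 0.00183), both under 2-fold. CD43+ cells against H1 gave -0.00034 with a 95% interval from -0.22 to 0.22 (limma adjusted p = 0.999), which lies within 2-fold on both sides.

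IGF2BP2, the family member that also stays active in many adult tissues, was at 17.7, 21.5 and 18.9 FPKM in H1 and at 19.7, 27.6 and 28.6 FPKM in APLNR+ cells. It was at 17.9, 26.5 and 26.3 FPKM in CD31+CD34+ cells and at 14.4, 29.6 and 26.0 FPKM in CD43+ cells. All 4 populations overlapped, and the coefficient of variation in CD43+ cells, 34.0%, was the highest of the 8 genes in any population. CD43+ cells against H1 gave 0.20 with a 95% interval from -0.33 to 0.73 (limma adjusted p = 0.467). Without replicate 2 of CD43+ cells it was 0.0053, and without replicate 1 of CD43+ cells 0.50 (limma adjusted p = 0.0349). Replicate 1 alone gave -0.28, and replicates 2 and 3 of every population gave 0.44 (limma adjusted p = 0.0027), under 2-fold. Other genes share 8.55% of the 50-base stretches of IGF2BP2, and AC020629.1, which shares most of these, was at most 0.0384 FPKM.

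IGF2BP3, the family member most often switched on again in tumors, was at 41.9, 45.4 and 42.5 FPKM in H1 and at 20.9, 26.6 and 26.8 FPKM in APLNR+ cells. It was at 12.9, 19.5 and 18.6 FPKM in CD31+CD34+ cells and at 12.2, 8.68 and 12.6 FPKM in CD43+ cells. The populations did not overlap, but the lowest CD31+CD34+ library and the highest CD43+ library were close. No single step reached 2-fold, with -0.79, -0.53 and -0.56 in order, and together they gave -1.88 ± 0.17 from H1 to CD43+ cells (SE, n = 3 against 3, 3.68-fold, limma adjusted p = 5.79e-07). The level of IGF2BP3 is uncertain, because 44.5% of its 50-base stretches are shared with annotated transcripts of other genes, 35.0% with MALSU1 on the opposite strand. MALSU1 itself was between 31.6 and 44.1 FPKM in H1 and between 19.8 and 21.1 FPKM in CD43+ cells, and its part in the values of IGF2BP3 was not tested.

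Within the IGF2BP family the leading gene changed by these values, in which the level of IGF2BP3 is uncertain as stated above. IGF2BP3 held 45.7% ± 1.90 of the summed message in H1 (SD, n = 3) and IGF2BP1 33.9% ± 1.97. APLNR+ cells already had IGF2BP1 in the lead, with 38.3% ± 3.34, beside 31.1% ± 2.63 for IGF2BP2 and 30.6% ± 0.765 for IGF2BP3. In CD31+CD34+ cells IGF2BP1 held 53.0% ± 4.44 and IGF2BP3 19.7% ± 1.87, and in CD43+ cells IGF2BP1 held 48.5% ± 2.80, IGF2BP2 34.4% ± 7.57 and IGF2BP3 17.2% ± 5.02. Each of the 3 shares was apart between CD43+ cells and H1 (exact two-sided permutation p = 0.1, the smallest possible), and each overlapped between CD43+ and CD31+CD34+ cells (exact two-sided permutation p from 0.3 to 0.6). Summed IGF2BP message in CD43+ cells was 70.3% of the H1 mean and summed HMGA message 70.7%.

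**Figure D3:**
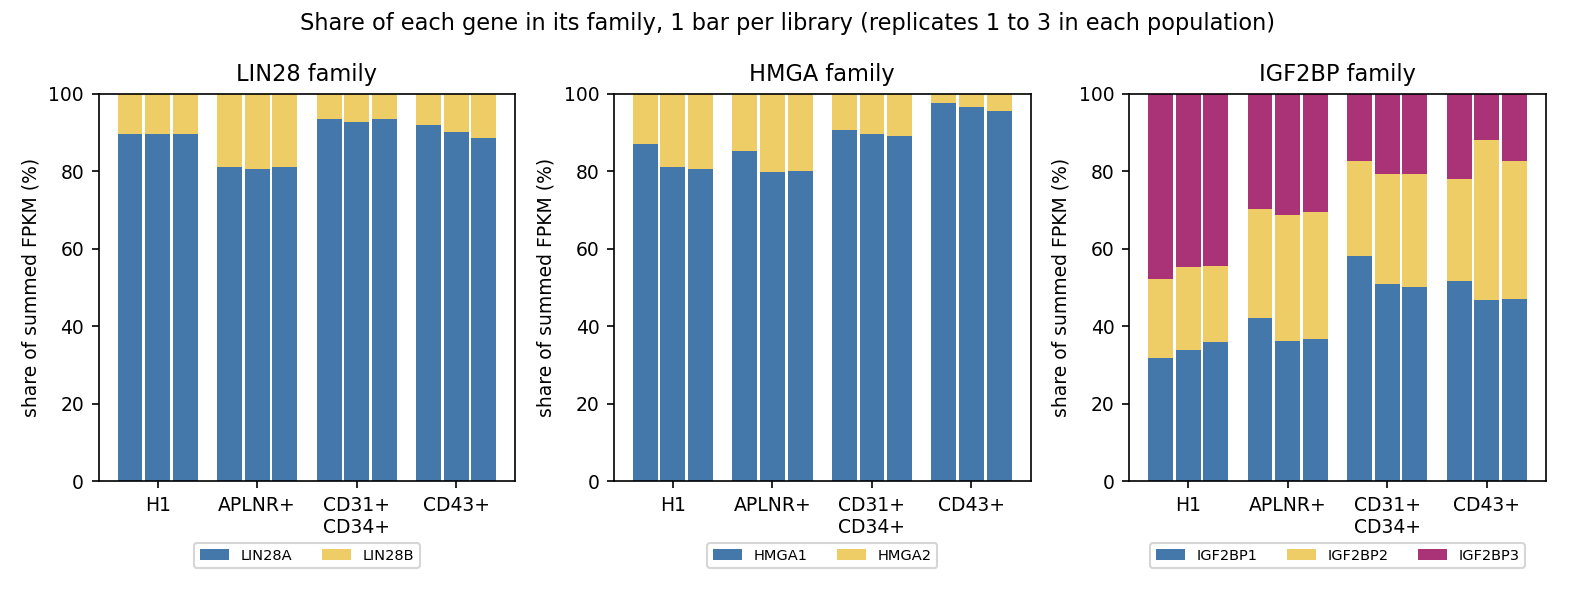
Share of each gene in the summed FPKM of its family (vertical axes, percent), 1 stacked bar per library in the 4 populations. LIN28A holds at least 80.6% in every library, HMGA1 reaches between 95.6% and 97.6% in CD43+ cells, and IGF2BP3 falls from at least 44.4% in H1 to at most 22.1% in CD43+ cells.

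The steps differed in which of the 8 genes they held. From H1 to APLNR+ cells 0 were called raised and 1 lowered, LIN28A, where 8.3% and 7.62% of all genes were, and the libraries were apart for 4 of 8 (66% of all genes). From APLNR+ to CD31+CD34+ cells 0 were called raised and 2 lowered, LIN28B and TRIM71, beside 12.5% and 17.1% of all genes, and libraries were apart for 7 of 8 (75.7% of all genes), among them 3 that were higher and 4 that were lower. From CD31+CD34+ to CD43+ cells 0 were called raised and 1 lowered, HMGA2, beside 5.58% and 8.79% of all genes, and libraries were apart for 5 of 8 (58% of all genes). Against these shares 1 or 2 of 8 genes is near the background. Over the whole course, H1 to CD43+ cells, it was 5 of 8 against 22.5%. Comparisons that share a population share its libraries, CD43+ against H1 and APLNR+ against H1 among them.

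**Figure D4:**
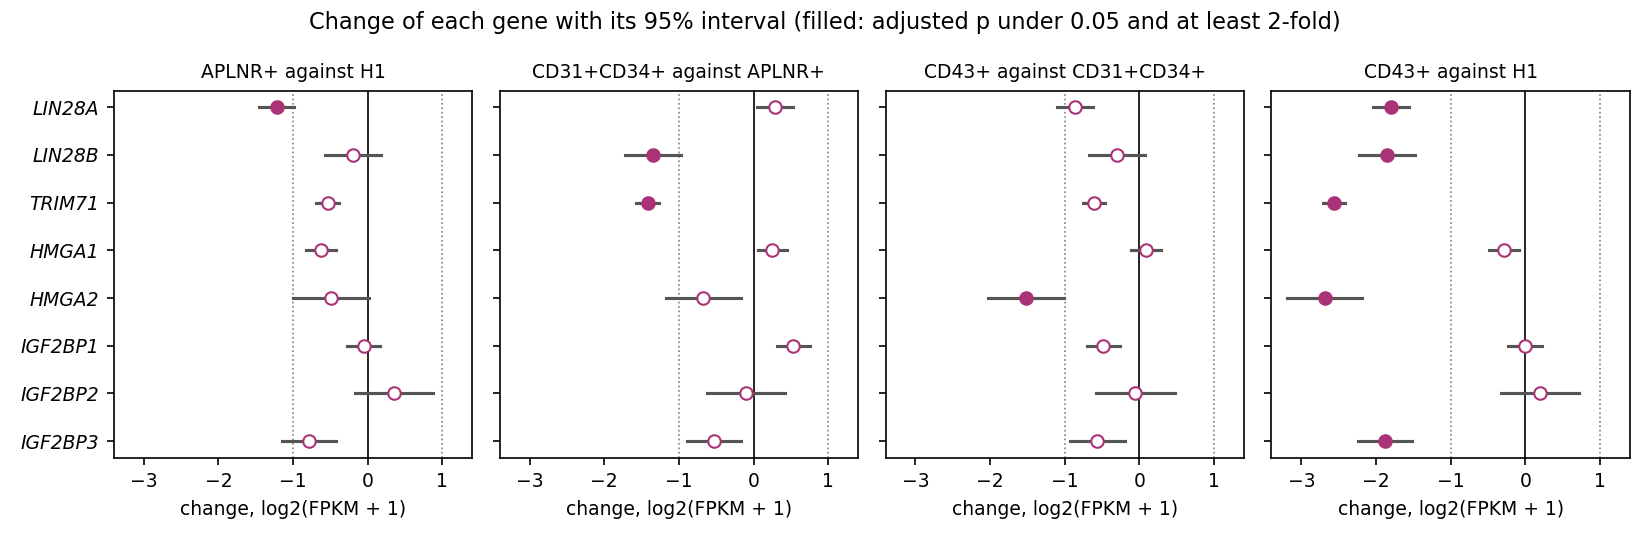
Change of each of the 8 genes (horizontal axes, difference of mean log2(FPKM + 1)) in 4 comparisons, with 95% intervals from limma. Filled points passed an adjusted p under 0.05 and 2-fold, marked by dotted lines. The filled points are LIN28A in the first panel, LIN28B and TRIM71 in the second, HMGA2 in the third and 5 genes, all lower, in the panel of CD43+ cells against H1.

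By the means of 3 libraries, what was left of the 8 genes in CD43+ cells was more than what was left of the 9 tested pluripotency markers. The highest mean share of these markers was 8.59% of the H1 mean, for DPPA4, and the lowest of the 8 genes was 14.4%, for HMGA2. Single libraries overlapped, as HMGA2 was at 8.99% in its lowest CD43+ library and DPPA4 at 9.58% in its highest. UTF1, the marker that did not pass the filter on low values, had a mean of 14.4% of an H1 level of 0.425 FPKM. POU5F1, the factor OCT4, was left at 12.5 FPKM and SOX2 at 0.061 FPKM in CD43+ cells. The contrast holds for this marker list only. Outside it, SALL4 was left at 37.9% of its H1 mean, above the 5 lowered genes, and CLDN6 at 4.53%, below all 8.

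**Figure D5:**
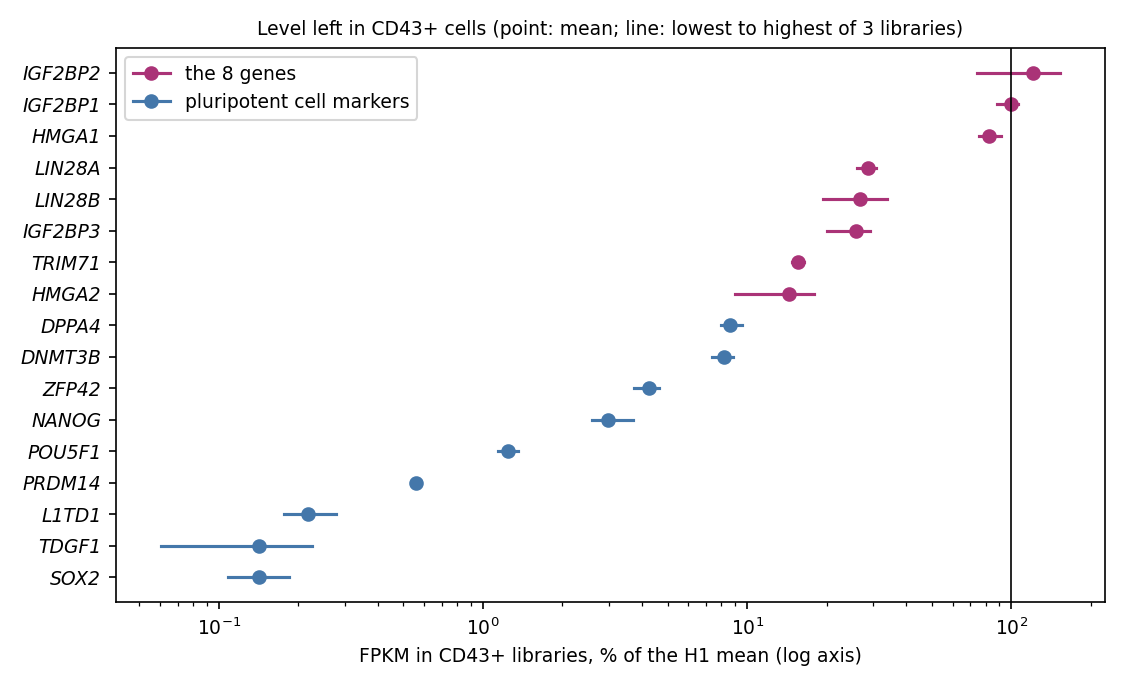
FPKM in CD43+ libraries as a percent of the H1 mean (horizontal axis, log scale) for the 8 genes and the 9 tested pluripotency markers. Points are means of 3 libraries and lines run from the lowest to the highest. The means of the markers lie between 0.141% and 8.59% and those of the 8 genes between 14.4% and 120.4%, while the lines of HMGA2 and DPPA4 overlap.

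Replicate 1 was the lowest library of its population in 26 of 32 cases over the 8 genes, 81.2%, against 50.6% over all genes tested. It was lowest in all 4 populations for LIN28A, LIN28B, HMGA2, IGF2BP1 and IGF2BP2, in 3 for IGF2BP3, in 2 for TRIM71 and in 1 for HMGA1. The labels give no batch, and the study names a pair of sequencing companies, BGI and Novogene, without saying which library went to which. With a term for replicate 1, and in replicates 2 and 3 alone, the 4 comparisons gave 1, 2, 1 and 5 of the 8 genes lowered and 0 raised, the same counts as from all libraries. With the term, 1136, 2543, 1307 and 3342 of all 14840 genes were lowered and 1235, 1867, 835 and 2166 raised. In replicates 2 and 3, 836, 2448, 1262 and 2961 of 13581 genes were lowered and 1092, 1934, 663 and 2103 raised. At the single steps 1 or 2 of 8 was again near the background. Within replicate 1, CD43+ against H1 gave -1.83 for LIN28A, -2.15 for LIN28B, -2.84 for HMGA2, -1.70 for IGF2BP3 and -2.56 for TRIM71. Within replicates 2 and 3 the same differences were -1.78, -1.70, -2.61, -1.97 and -2.56.

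The lists that follow were written from general knowledge, and their counts in CD43+ cells against H1 stand beside 14.6% of all genes raised and 22.5% lowered. Of 19 let-7 processing and turnover genes, 0 were called raised and 3 lowered in CD43+ cells against H1, with a median change of -0.098 beside -0.10 for all genes. Under TMM scaling 1 was lowered. DICER1, which cuts the hairpin, was at 14.3 ± 0.986 FPKM in H1 (SD, n = 3) and 6.29 ± 0.376 FPKM in CD43+ cells. TNRC6A, a partner of Argonaute in repression, was at 17.7 and 4.71 FPKM and ZCCHC11, the enzyme TUT4 that adds uridine to let-7 precursors for LIN28, at 14.7 and 6.28 FPKM. DIS3L2, the exonuclease that degrades such precursors, was at 11.2 FPKM in H1 and 19.3 FPKM in CD43+ cells and was not called. From APLNR+ to CD31+CD34+ cells 4 of the 19 were lowered, DICER1, TNRC6A, ZCCHC11 and ZCCHC6 (TUT7), where 17.1% of all genes were, so this count is near the background.

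Of 26 other let-7 targets that could be tested, 4 were raised and 4 lowered in CD43+ cells against H1, with a median of -0.25 beside -0.10 for all genes. MYCN was at 26.1 ± 2.07 FPKM in H1 (SD, n = 3), 6.55 FPKM in CD31+CD34+ cells and 68.2 FPKM in CD43+ cells. HAND1, a transcription factor of mesoderm, was one of the raised genes, at 0.0569 FPKM in H1, 44.9 FPKM in APLNR+ cells, 22.6 FPKM in CD31+CD34+ cells and 1.59 FPKM in CD43+ cells. TGFBR1, a TGF-beta receptor, was at 16.98 FPKM in H1 and 6.27 FPKM in CD43+ cells.

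Other oncofetal genes went both ways. Of 17 tested, 4 were raised and 10 lowered in CD43+ cells against H1, with a median of -1.34 beside -0.10 for all genes. DPPA4, L1TD1 and TDGF1 stand in this list and among the pluripotency markers, and all were lowered. IGF2, the growth factor whose message gave the IGF2BP family its name, was at 0.0907 FPKM in H1 and between 26.4 and 35.2 FPKM in CD43+ cells. DLK1, a fetal ligand of the Notch family, was at 0.254 FPKM in H1 and between 95.1 and 111 FPKM in CD43+ cells, MYCN was named above, and PLAGL1 was the other gene raised. CLDN6, a tight junction protein, was at 120.2 FPKM in H1 and 5.44 FPKM in CD43+ cells. TDGF1 was at 234 and 0.333 FPKM, GPC3 at 38.8 and 5.37 FPKM and SALL4 at 37.4 and 14.2 FPKM. Of 20 relatives of the 8 genes by protein family 0 were raised and 9 lowered, beside 14.6% and 22.5% of all genes, with a median of -0.86. They include TRIM2, which was at 21.9 FPKM in H1 and 2.26 FPKM in CD43+ cells, and CARHSP1, at 147 and 48.3 FPKM.

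Embryonic and fetal globins were high in CD43+ cells. HBE1, the embryonic beta-like globin, was between 482 and 564 FPKM there and HBG2, a fetal one, between 1137 and 1510 FPKM. HBG1 and HBB, named after their values were seen, were between 30.0 and 72.3 FPKM and between 9.24 and 13.8 FPKM. HBG1 and HBG2 are nearly identical in sequence, so the division of fragments between them is uncertain. BCL11A, a repressor of fetal globin genes, also named after its values were seen, was between 3.66 and 6.23 FPKM in H1, between 2.61 and 5.40 FPKM in APLNR+ cells, between 0.197 and 0.331 FPKM in CD31+CD34+ cells and between 0.616 and 2.12 FPKM in CD43+ cells.

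For each of the 8 genes the most similar patterns were sought among 10403 genes by the root mean square difference of log2(FPKM + 1) over 12 libraries, after each gene's own mean was subtracted. Genes of the Y chromosome were left out. Nearest were GAP43, LITAF and KAT7 for LIN28A, from 0.102 to 0.138. For TRIM71 they were ZNF69, MAPK6 and NUDT10, from 0.0973 to 0.148. For HMGA1 they were C20orf27, PSMD4 and BAHD1, from 0.0656 to 0.0731, and for HMGA2 MYH10, TRIM2 and PLEKHG4B, from 0.202 to 0.218. For IGF2BP1 they were GTF3C2, STT3A and C15orf38-AP3S2, from 0.0756 to 0.0909, for IGF2BP2 MARK2, KDM5A and VTI1A, from 0.145 to 0.164, and for IGF2BP3 SLC16A1, DEPDC1B and GALNT7, from 0.152 to 0.183. The gene of the 8 nearest to TRIM71 was LIN28B, at 0.310, and 201 other genes were nearer. For each of the 8 genes at least 105 other genes were nearer than the nearest of the 8.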

How the data were processed

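The study sequenced RNA from 4 populations, 3 libraries each, mapped to groups by sample titles. Per the labels, Trizol and the Illumina TruSeq RNA kit were used. The authors deposited 1 table of FPKM values. The submitters' processing notes name BWA, Bowtie, RSEM and hg19, and their roles and versions are not given in the sources used here. Of 58366 lines 1 held text and was left out. Of the lines of 345 repeated symbols, that of highest mean was used.

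Values were transformed as log2(FPKM + 1) and limma 3.58.1 in R 4.3.3 (lmFit, contrasts.fit, eBayes with trend) was fitted to all 12 libraries without covariates. FPKM are not counts, so no count test was run, and depth is unknown. The precision is limited by 3 libraries per population. The fit was tested on simulated data. Replicates had at most 1.19% identical values. Family shares were compared by exact permutation of libraries. The genes, lists and rules were chosen with earlier results of these data known, and 3 of 27 alternatives were added after the data were seen (replicates 2 and 3 alone, a term for replicate 1, and an unweighted trimmed mean of M values, TMM, as a scaling). The named genes were the 8 genes, for each the 3 most similar genes (5 FPKM or more in a population), from each list at most 4 genes called in both CD43+ comparisons, and markers. Some values under this rule, among them the genes most similar to LIN28B, are not reported here. DICER1, TNRC6A, ZCCHC11, ZCCHC6, DIS3L2, PLAGL1, GPC3, SALL4, MIR99AHG, MIR100HG and the globins were named after their values were seen. 3' UTRs came from GENCODE release 29, whose build differs from that of the files, and sequences of microRNAs from RefSeq. Tables, exact tests and figures were made in Python 3.11.15 (scipy 1.17.1, pandas 2.3.3, numpy 2.4.6, matplotlib 3.10.9).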

Additional observations from a re-analysis of the deposited data

How the results depend on the processing

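None of the 8 genes was called raised in any comparison under 26 of 27 alternatives. Without a minimum change, adjusted p under 0.05 alone gave 4 lowered from H1 to APLNR+ cells, 3 raised and 4 lowered in CD31+CD34+ against APLNR+ cells, 5 lowered from CD31+CD34+ to CD43+ cells and 6 lowered from H1 to CD43+ cells. Of all 14840 genes tested, 5218, 5619, 4121 and 6154 were lowered in these comparisons in the same order. In CD31+CD34+ against APLNR+ cells 5329 of them were raised. With a 4-fold minimum 0, 0 and 0 were lowered at the 3 steps and 2 over the whole course, HMGA2 and TRIM71. Scaling to the sum of protein-coding genes moved LIN28A from H1 to APLNR+ cells to -0.96, so 0 were lowered there, and moved the median of all genes from -0.12 to 0.07. It also turned LIN28B to 0.055 and IGF2BP1 to 0.20 at that step, HMGA1 to -0.046 from CD31+CD34+ to CD43+ cells, and IGF2BP1 to -0.31 from APLNR+ to CD43+ cells. Quantile normalization turned LIN28A to -0.0030 and HMGA1 to -0.037 from APLNR+ to CD31+CD34+ cells. IGF2BP1 changed sign from H1 to APLNR+ cells at 0.022 under upper-quartile scaling, 0.11 under quantile normalization and 0.0080 under TMM. From H1 to CD43+ cells it was 0.0097, 0.064 and 0.17 under the same settings and between -0.097 and 0.0816 with a library left out. From APLNR+ to CD43+ cells it was -0.0122 under upper-quartile and -0.046 under quantile scaling. IGF2BP2 ranged from -0.26 to 0.078 from APLNR+ to CD31+CD34+ cells and from -0.25 to 0.25 from CD31+CD34+ to CD43+ cells with a library left out, and the latter was 0.069 in replicates 2 and 3. These values were not called, and the cause was not tested.

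Leaving out any single library kept every call of the 8 genes at the steps from H1 to CD43+ cells and over the whole course. Changes under 2-fold were less stable against the limma adjusted p of 0.05. From APLNR+ to CD31+CD34+ cells LIN28A lost significance without replicate 1 of APLNR+ (0.133) or replicate 2 or 3 of CD31+CD34+ (0.121 and 0.111). At that step HMGA1 lost it without replicate 2 or 3 of APLNR+ (0.0535 and 0.0860) or replicate 2 of CD31+CD34+ (0.101). HMGA2 lost it there without replicate 2 or 3 of APLNR+ (0.0695 and 0.0574) or replicate 1 of CD31+CD34+ (0.0637), and IGF2BP3 without the last of these (0.0583). IGF2BP3 from CD31+CD34+ to CD43+ cells lost it without replicate 2 or 3 of CD31+CD34+ (0.0592 and 0.0527) or replicate 2 of CD43+ (0.0615). HMGA1 from H1 to CD43+ cells lost it without replicate 1 of CD43+ (0.0536), in replicates 2 and 3 alone (0.0734) and under TMM (0.234). Upper-quartile, quantile and protein-coding scaling ended it for LIN28A and HMGA1 from APLNR+ to CD31+CD34+ cells. At that step LIN28A and HMGA2 also lost it without the filter on low values (0.0606 and 0.0579). A fit to only the populations compared ended it for LIN28A at that step (0.0609) and for IGF2BP3 from CD31+CD34+ to CD43+ cells (0.0535).

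Replicate 1 libraries of the 4 populations deviated together, with correlations from 0.196 to 0.429 in 6 pairs, and all 24 correlations of a replicate 1 library with another number were below 0, from -0.404 to -0.0611. Replicates 2 and 3 were not paired by number, at -0.0214 to 0.269 for the same number and 0.0213 to 0.289 for different ones. Over all numbers 12 of 18 pairs of the same number were over 0.1, and 23 of 36 times a library was closest to its own number. The fit with the replicate number as a block gave 1, 2, 1 and 5 lowered and 0 raised, the same counts. Under the block 3 changes under 2-fold became significant, LIN28B from CD31+CD34+ to CD43+ cells (0.0322) and HMGA2 and IGF2BP2 from H1 to APLNR+ cells (0.00197 and 0.0292).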
